A study of Mus musculus with 14 samples.

Results

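Sod1, Sod2, Sod3, Ccs and Cat, the 5 mouse genes that encode the superoxide dismutases, their copper chaperone and catalase, were followed in the RPE of rd1 mice whose eyes did or did not overexpress Nrf2. They are 5 of the 34452 mouse genes in the count table. They and the lists of related genes were chosen by name for their function, with earlier results of these data known. The RPE, the retinal pigment epithelium, is the epithelial cell layer behind the photoreceptors. The rd1 mouse (FVB/N) lacks functional Pde6b, so that its rods die early in life. All 14 libraries came from the 2 eyes of 7 mice at postnatal day 20. Both eyes of a mouse received AAV-Best1-GFP, an adeno-associated virus that drives green fluorescent protein from the human Best1 promoter, which is active in the RPE. In the Nrf2 group (n = 7) the eye also received AAV-Best1-Nrf2, which drives the human cDNA of Nrf2 (NFE2L2) from the same promoter, and in the control group (n = 7) it did not. The Nrf2 virus had an AAV8 capsid and the GFP virus a 7M8 capsid, so the transgene, the capsid and the added virus cannot be told apart. Total counts ranged from 16548349 to 50543008 per library.

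Superoxide is produced by mitochondria and by NADPH oxidases, and superoxide dismutases convert it to hydrogen peroxide and oxygen. Sod1 is the copper-zinc enzyme of the cytosol, Sod2 the manganese enzyme of the mitochondrial matrix, and Sod3 a secreted copper-zinc enzyme held at cell surfaces and in the extracellular matrix. Ccs hands copper to Sod1. Catalase, from Cat, is a heme enzyme of peroxisomes that splits hydrogen peroxide into water and oxygen. Nrf2 is a transcription factor that binds antioxidant response elements near many genes of this kind.

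The 250 bases before the start site of Sod1, Sod2 and Cat are shown. Of the 5 genes these 3 had an entry in the table of promoters, and they also had the largest differences between the eyes. The windows are RefSeq promoters on GRCm38.p6, written 5′ to 3′ on the strand of the gene. In GENCODE the Sod2 gene begins at 13006846, so its RefSeq window lies inside the annotated gene. Capitals mark matches, on either strand, to 5 motifs: the antioxidant response element core TGACNNNGC, the GC box GGGCGG, the CCAAT box CCAAT, the AP-1 site TGANTCA and the TATA box TATAAA.
Sod1, chr16:90220512-90220761, plus strand: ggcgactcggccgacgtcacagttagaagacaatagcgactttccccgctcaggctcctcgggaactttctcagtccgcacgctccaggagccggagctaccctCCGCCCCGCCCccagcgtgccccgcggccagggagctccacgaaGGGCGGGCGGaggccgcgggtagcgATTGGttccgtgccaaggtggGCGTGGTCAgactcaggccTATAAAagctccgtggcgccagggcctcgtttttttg
Sod2, chr17:13007589-13007838, plus strand: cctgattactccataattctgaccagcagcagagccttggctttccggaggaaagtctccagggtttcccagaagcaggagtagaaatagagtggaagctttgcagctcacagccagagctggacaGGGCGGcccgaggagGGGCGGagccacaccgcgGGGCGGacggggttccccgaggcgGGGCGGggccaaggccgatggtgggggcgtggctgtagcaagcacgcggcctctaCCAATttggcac
Cat, chr2:103485154-103485403, minus strand: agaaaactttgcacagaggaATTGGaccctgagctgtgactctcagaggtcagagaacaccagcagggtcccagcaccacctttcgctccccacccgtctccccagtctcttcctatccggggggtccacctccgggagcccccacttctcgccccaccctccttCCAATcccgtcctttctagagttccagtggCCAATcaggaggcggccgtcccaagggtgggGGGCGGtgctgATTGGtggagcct

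The Sod1 window held 1 antioxidant response element core, on the minus strand of the window and starting at position -56 from the start site, as well as 4 GC boxes, 1 CCAAT box and 1 TATA box at -37. The Sod2 window held 4 GC boxes and 1 CCAAT box, and the Cat window held 1 GC box and 4 CCAAT boxes. Neither the Sod2 nor the Cat window held the letters of the antioxidant response element core or the AP-1 site, which describes these 250 bases only. Among all 32851 promoters of the table, cut to the same window, 10.2% held the antioxidant response element core, 32.7% the GC box, 33.9% the CCAAT box, 6.75% the AP-1 site and 12.4% the TATA box. The AP-1 letters can overlap those of the antioxidant response element core. The G and C content was 66.4% for Sod1, 63.6% for Sod2 and 62.0% for Cat, against a median of 52.4% over all promoters.

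Levels are given as counts scaled to a library total of 1000000 (CPM) after TMM normalization, which rescales libraries on the assumption that most genes do not differ. The vector transcript, human NFE2L2, was examined in every library. It ranged from 1144 to 9812 CPM in Nrf2 eyes and from 0.987 to 1159 CPM in control eyes. The library labelled control 3 (1159 CPM) carried as much of it as the library labelled Nrf2 4 (1144 CPM). These libraries were also the closest of the 91 pairs over 15787 genes, at a median squared difference of 3.71 times what sampling alone gives. The next pair stood at 10.99 times. Nrf2 2 had the fewest total counts (16548349) and 2.55% of them in pseudogenes, against 1.06% to 1.17% in the other libraries. Its closest pair, with Nrf2 6, stood at 55.0 times what sampling alone gives. Its pair with control 6, at 103 times, was the farthest of the 91. Of 15 RPE markers none was at 0 in all libraries, their summed level ranged from 25005 to 39723 CPM in Nrf2 and from 20774 to 38617 CPM in control eyes, and 1 of them, Rpe65, was lower in Nrf2 eyes (log2 difference -2.17, adjusted p 0.0198). Of all 16289 genes tested, 0.491% were called lower and 2.94% higher. The 10 cone markers summed to 30.5 to 140 CPM in Nrf2 and 52.1 to 1125 CPM in control eyes, lower in 6 of 7 mice, and 2 of them (Gnat2 and Opn1sw) were called lower. Of 11 rod markers 10 had a log2 fold change below 0 (median -1.78) and 1, Rom1, was called higher, while their sum was higher in 5 of 7 mice. Rom1 made up most of that sum in Nrf2 eyes, at 389 CPM on average against 96.9 CPM in control eyes. Immune markers (127 to 315 against 210 to 354 CPM) and those of Mueller glia and inner retina (3011 to 4069 against 2851 to 4835 CPM) were lower in sum in 6 of 7 mice. Of 8 immune markers tested, 6 had a log2 fold change above 0 and 2 below (median 0.72). Those below, Csf1r (103 against 174 CPM on average) and Itgam (53.7 against 92.5 CPM), were the most abundant. Rlbp1, also on the RPE list, and Trpm1 made up most of the Mueller glia and inner retina sum (1318 and 1295 CPM on average in Nrf2 eyes). Of 11 genes of that list tested, 9 were below 0 and 2 above (median -0.64). The 9 endothelial markers were lower in sum in the Nrf2 eye of 7 of 7 mice (74.1 to 151 against 83.0 to 272 CPM). No marker of these lists was at 0 in all libraries, and their part in the results was not tested. Because control 3 and Nrf2 4 stand near each other, values without mice 3 and 4 are given beside each of the 5 genes.

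Cat and Sod2 rose in Nrf2 eyes, in every one of the 7 mice. The differences of Sod1, Ccs and Sod3 did not pass the test. Thus 2 of the 5 genes were higher and none was lower, while 2.94% of the 16289 genes tested were higher and 0.491% lower (3.43% in either direction). The median log2 fold change was 0.60 over the 5 genes and -0.04 over all genes tested.

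Cat (ENSMUSG00000027187, chromosome 2, 103453849 to 103485160, minus strand) had the largest difference of the 5 genes. In control eyes its lowest, median and highest levels were 186, 263 and 368 CPM, and in Nrf2 eyes they were 385, 665 and 1004 CPM. The groups did not overlap, which was the case with higher Nrf2 levels for 1.22% of all genes tested. The library labelled Nrf2 4, at 385.4 CPM, was nearest to the control group, and control 3, at 368.0 CPM, was nearest to the Nrf2 group. The mean was 277 ± 60.1 CPM in control and 738 ± 219 CPM in Nrf2 eyes (SD, n = 7). The log2 fold change was 1.39 with an SE of 0.21, and edgeR's quasi-likelihood test gave an adjusted p of 0.0135. The paired log2 differences of mice 1 to 7 were 2.06, 1.31, 1.29, 0.28, 1.84, 1.30 and 1.59. Mouse 4 had the smallest of them. The adjusted p was 0.0510 without mouse 5 and 0.0587 without mouse 7, with log2 fold changes of 1.31 and 1.35. Without mice 3 and 4 the estimate was 1.62 (SE 0.18) at an adjusted p of 0.00615.

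Sod2 (ENSMUSG00000006818, chromosome 17, 13006846 to 13040063, plus strand) rose by nearly as much. Its lowest, median and highest levels were 112, 126 and 169 CPM in control eyes and 168, 284 and 457 CPM in Nrf2 eyes. The groups overlapped only in the library labelled Nrf2 4, at 168.3 CPM, which lay just under control 3, at 168.8 CPM. The highest Nrf2 levels were in mice 1 and 7, as for Cat. The mean was 133 ± 19.1 CPM in control and 328 ± 110 CPM in Nrf2 eyes (SD, n = 7). The log2 fold change was 1.24 with an SE of 0.18, at an adjusted p of 0.0127. All 7 mice had a higher level in the Nrf2 eye, by 0.42 to 1.93 on the log2 scale, which 5.65% of all genes tested shared. Leaving out mouse 7 took the adjusted p to 0.0507 with a log2 fold change of 1.16. Without mice 3 and 4 the estimate was 1.40 (SE 0.18) at an adjusted p of 0.0119.

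**Figure D1:**
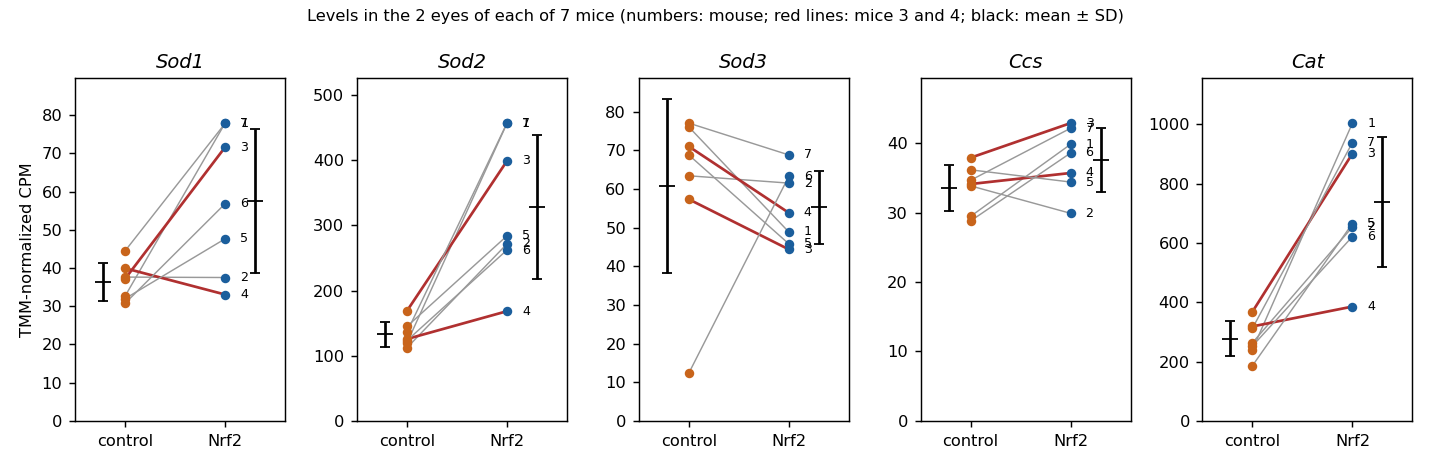
TMM-normalized CPM of Sod1, Sod2, Sod3, Ccs and Cat (y axis) in control and Nrf2 eyes (x axis), with 1 point per library, lines joining the eyes of a mouse (red for mice 3 and 4), numbers for the mouse and bars for the mean and SD (n = 7). For Cat and Sod2 all 7 lines go up, and Sod3 fell to 12.3 CPM in control 6.

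Sod1 (ENSMUSG00000022982, chromosome 16, 90220754 to 90226329, plus strand) did not pass the test. Its lowest, median and highest levels were 30.8, 37.2 and 44.5 CPM in control eyes and 33.1, 56.8 and 77.9 CPM in Nrf2 eyes. Nrf2 4 and Nrf2 2 lay within the control range, and the other 5 Nrf2 eyes lay above it. The mean was 36.4 ± 4.92 CPM in control and 57.5 ± 18.8 CPM in Nrf2 eyes (SD, n = 7). The log2 fold change was 0.60 with an SE of 0.19, at an adjusted p of 0.141. The paired log2 differences were above 0 in 5 of 7 mice, and those of mice 2 and 4 were -0.0042 and -0.27. On plain CPM 6 of 7 mice were higher. The exact 95.3% interval of the mean paired difference ran from -0.0042 to 1.07 (p 0.0625 by exact sign-flip permutation). Without mouse 4 the log2 fold change was 0.75, with an adjusted p of 0.0179, and without mice 3 and 4 it was 0.71 (SE 0.19) at an adjusted p of 0.0871. Without mouse 2 it was 0.70 (SE 0.19) at an adjusted p of 0.101. With all mice, DESeq2 gave an adjusted p of 0.0491 and voom with sample quality weights one of 0.00643.

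Near-identical copies could take reads from Sod1. The gene Gm8566 matched 465 of the 641 bases of the Sod1 transcript at 97.8% identity, but it reached at most 17 counts in any library, against 665 to 3745 counts of Sod1. The gene Scaf4 overlapped Sod1 on the opposite strand by 650 bases, with 0 exonic bases in common.

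Ccs (ENSMUSG00000034108, chromosome 19, 4825366 to 4839332, minus strand), which loads Sod1 with copper, had the narrowest spread of the 5 genes, with a coefficient of variation of 9.93% in control and 12.3% in Nrf2 eyes. It ranged from 28.8 to 37.9 CPM in control eyes (median 34.1) and from 29.9 to 42.9 CPM in Nrf2 eyes (median 38.6). The groups overlapped over most of their range, although the 4 highest libraries were Nrf2 eyes. The mean was 33.6 ± 3.33 CPM in control and 37.6 ± 4.62 CPM in Nrf2 eyes (SD, n = 7), and the log2 fold change of 0.16 (SE 0.11) did not pass the test (adjusted p 0.457). The exact 95.3% interval of the mean paired difference was -0.07 to 0.42 (p 0.156 by exact sign-flip permutation). Without mice 3 and 4 the log2 fold change was 0.18 at an adjusted p of 0.566. The direction in single mice depended on the scaling, with 5 of 7 mice higher after TMM normalization and 3 of 7 on plain CPM.

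Sod3 (ENSMUSG00000072941, chromosome 5, 52363791 to 52371418, plus strand), the secreted enzyme, did not pass the test. Its lowest, median and highest levels were 12.3, 68.8 and 77.1 CPM in control eyes and 44.4, 53.9 and 68.8 CPM in Nrf2 eyes. The level of 12.3 CPM was that of control 6, where 281 counts were found, and the other 6 control eyes were at 57.4 CPM or above. The log2 fold change was -0.04 with an SE of 0.34 (adjusted p 0.966), and the exact 95.3% interval of the mean paired difference ran from -0.59 to 1.10. Sod3 was lower in the Nrf2 eye of 6 of 7 mice, by 0.04 to 0.64 on the log2 scale, and higher by 2.35 in mouse 6. On plain CPM it was lower in 5 of 7 mice. Without mouse 6 the log2 fold change was -0.38 (SE 0.11), which did not pass the test either (adjusted p 0.143), and without mice 3 and 4 it was 0.11 (SE 0.44). Its sign also turned without mouse 1, 3, 4 or 5, at 0.02 to 0.07.

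Control 6 was the lowest control eye for several marker lists. Its 9 fibroblast markers summed to 192 CPM, against 736 to 950 CPM in the other control eyes, its 9 smooth muscle and pericyte markers to 298 CPM, against 343 to 1436 CPM, and its 9 endothelial markers to 83.0 CPM, against 95.5 to 272 CPM. It was also the lowest for choroidal melanocytes (1060 against 1962 to 3141 CPM), Mueller glia and inner retina (2851 against 3697 to 4835 CPM), rods (102 against 138 to 670 CPM), skeletal muscle (12.8 against 36.1 to 257 CPM) and RPE (20774 against 22150 to 38617 CPM), and the highest for immune cells (354 against 210 to 336 CPM). In control 2 the smooth muscle and pericyte markers were also low, at 343 CPM, with Sod3 at 63.4 CPM. No marker of these lists was at 0 in all libraries. Their part in the level of Sod3 was not tested. The RNA came from eyecups without retina that had been cleaned of connective tissue, of which the supernatant was taken to purify RPE RNA. In such bulk RNA, fewer cells of a type and less RNA per cell cannot be told apart.

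Levels of different genes were compared per transcript length, as counts per kilobase of the longest annotated transcript scaled to a total of 1000000 per library. On this scale control eyes averaged 235 ± 52.8 for Cat, 126 ± 20.5 for Sod1, 69.6 ± 7.90 for Ccs, 50.1 ± 6.77 for Sod2 and 36.7 ± 14.8 for Sod3 (SD, n = 7). The ranges of neighbours in this order overlapped for Ccs and Sod2 and for Sod2 and Sod3, but not for Cat and Sod1 or for Sod1 and Ccs. Nrf2 eyes averaged 548 ± 135 for Cat, 174 ± 47.7 for Sod1, 108 ± 31.2 for Sod2, 69.1 ± 5.80 for Ccs and 29.3 ± 6.32 for Sod3. Here Sod2 stood above Ccs on average, and its range overlapped those of both Sod1 and Ccs, while those of Cat and Sod1 and of Ccs and Sod3 did not overlap. The scale depends on the transcript chosen: with the shortest coding transcript of 779 bases in place of 2613, Cat averaged 787 in control and 1838 in Nrf2 eyes. With 840 bases in place of 1067, Ccs averaged 88.4 in control and 87.8 in Nrf2 eyes. The lowest Sod1 control eye was at 96.0, and the overlap of ranges was not examined at that length of Ccs.

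Whether the genes changed unequally was tested with the log2 ratio of each of the 10 pairs of genes within a library, which does not depend on scaling. The ratio of Sod2 to Ccs rose by 1.08 ± 0.44 (SD, n = 7), in 7 of 7 mice, and the ratio of Ccs to Cat fell by 1.22 ± 0.56, in 7 of 7 mice. Sod1 fell relative to both genes that rose, by 0.64 ± 0.38 relative to Sod2 and by 0.78 ± 0.39 relative to Cat, again in 7 of 7 mice. For each of these 4 ratios exact sign-flip permutation gave p 0.0156, the smallest that 7 mice allow, with 0.0391 after adjustment over the 10 ratios. Cat and Sod2 thus changed by more than Sod1 and Ccs did. Without mice 3 and 4 the changes were 1.22 for Sod2 to Ccs, -1.44 for Ccs to Cat, -0.70 for Sod1 to Sod2 and -0.92 for Sod1 to Cat, where 5 mice are too few for this test to pass.

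A difference between Sod2 and Cat was not detected: the mean change of their ratio was -0.14 ± 0.35 (SD, n = 7), with an exact 95.3% interval of -0.50 to 0.15 and an adjusted p of 0.399 by exact permutation. The ratio of Sod1 to its chaperone Ccs was higher in the Nrf2 eye of 6 of 7 mice, by 0.44 ± 0.40 on average, with an adjusted p of 0.0670 in the exact permutation test. Ratios with Sod3 ranged more widely between mice. The change was 1.22 ± 1.22 for Sod2 to Sod3 and -1.36 ± 1.26 for Sod3 to Cat, both with an exact permutation adjusted p of 0.0670, and without mouse 6 these changes were 1.63 and -1.76 with an adjusted p of 0.0446. The ratio of Sod1 to Sod3 changed by 0.58 (adjusted p 0.312), or by 0.92 without mouse 6 (adjusted p 0.0446), and that of Sod3 to Ccs by -0.14 (adjusted p 0.734, exact permutation tests).

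**Figure D2:**
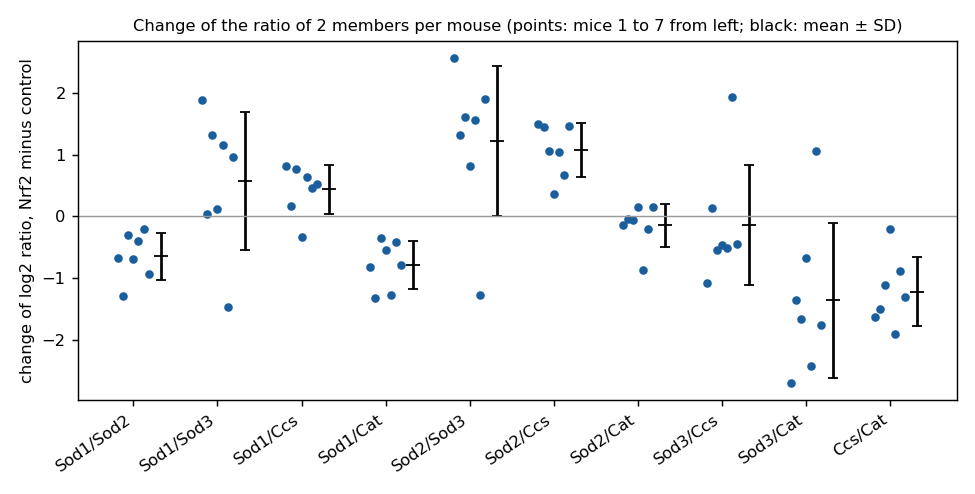
Change of the log2 ratio between 2 genes, Nrf2 minus control eye (y axis), for the 10 pairs of genes (x axis), with 1 point per mouse (mice 1 to 7 from left) and bars for the mean and SD of 7 mice. All 7 mice lay on the same side of 0 for Sod1/Sod2, Sod1/Cat, Sod2/Ccs and Ccs/Cat, and mouse 6 stood apart in ratios with Sod3.

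Within the Nrf2 group, the eyes with more vector transcript had more Cat, Sod2 and Sod1. Over the 7 Nrf2 eyes, Pearson's r with human NFE2L2 on the log2 scale was 0.96 for Cat, 0.93 for Sod2 and 0.84 for Sod1, with exact permutation p of 0.0020, 0.0024 and 0.0026 and an adjusted p of 0.0043 for each over the 5 genes. Spearman's rho was 0.86 for Cat and 0.82 for Sod2, both with an exact permutation adjusted p of 0.0569, and 0.96 for Sod1 (p 0.0028, adjusted 0.0139). Without the 2 eyes farthest from the median, Nrf2 1 and Nrf2 4, r over the other 5 eyes was 0.94 for Cat, 0.95 for Sod2 and 0.86 for Sod1.

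Ccs and Sod3 had weaker relations to the vector transcript. For Ccs r was 0.41 (exact permutation p 0.350, adjusted 0.437) and rho 0.71 (p 0.0881, adjusted 0.110), and r was 0.77 without the same 2 eyes and 0.12 on plain CPM. For Sod3 r was 0.03 (exact permutation p 0.969) and rho 0.11 (p 0.840), and r was 0.24 without them. Sequencing depth moved with these measures: the log2 of total counts had r of 0.46 with the vector transcript (exact permutation p 0.313) and of 0.76 with Sod1, 0.70 with Sod2, 0.63 with Cat and 0.71 with Ccs. Spearman's rho of total counts was 0.57 with the vector transcript (exact permutation p 0.200), 0.82 with Sod2 (p 0.0341), 0.79 with Cat (p 0.048) and 0.71 with Sod1 (p 0.0881). The summed RPE markers had r of 0.31 with the vector transcript (exact permutation p 0.575). The part of depth and RPE content in the relations was not tested.

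**Figure D3:**
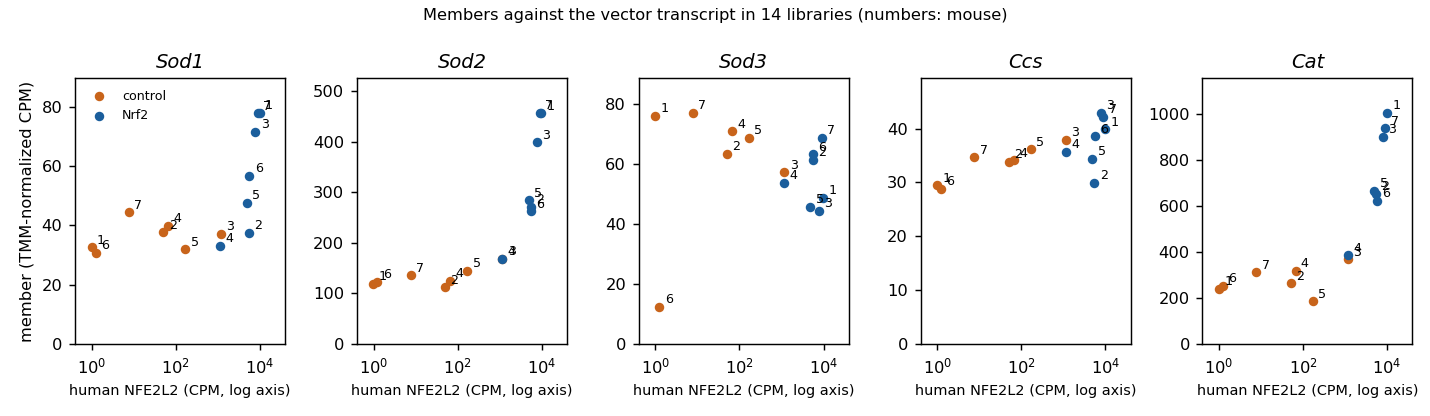
Normalized CPM of each gene (y axis, linear from 0) against normalized CPM of human NFE2L2 (x axis, log scale), with 1 point per library numbered by mouse, in control and Nrf2 eyes. Nrf2 4 and control 3 lie together at 1144 and 1159 CPM of vector transcript, and Cat, Sod2 and Sod1 climb among the Nrf2 eyes with more of it.

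The genes whose profiles over the 14 libraries were nearest to each of the 5 were found by the root mean square difference of log2 levels, after each gene was centred on its mean, among 11999 genes. Nearest to Sod2 were Cbr1 (a carbonyl reductase, 0.096), Rexo2 (an RNA exonuclease, 0.11) and Ypel5 (0.12), against the spread of Sod2 itself of 0.72. Nearest to Cat were Me1 (cytosolic malic enzyme, which makes NADPH, 0.13), Gm7049 (0.14) and Fbxo36 (0.18), against 0.79. Nearest to Sod1 were Bax (which promotes apoptosis, 0.10), Polr2l (an RNA polymerase subunit, 0.12) and Fam174a (0.13), against 0.46. For Ccs they were Slc25a3, which carries phosphate and copper into mitochondria (0.055), Ndufb5 (0.062) and Apmap (0.066), against 0.17, and for Sod3 they were Rarres2 (0.20), Gng11 (0.23) and Tsc22d1 (0.24), against 0.64. Among the 5 genes, Sod2 and Cat were closest (0.23) and Sod3 and Cat farthest apart (1.00).

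Genes that supply, move or use the metals of these enzymes were measured next. Of 18 genes on the list for copper supply, 3 rose and none fell, with a median log2 fold change of 0.05. Of all genes tested, 2.94% rose and 0.491% fell. The count was 2 without mouse 2, 1 without mouse 1, 3, 5, 6 or 7, and 5 without mouse 4 (4 higher and 1 lower). DESeq2 and voom each called 1 gene lower besides 3 and 4 higher. Over all genes, the fit without mouse 4 called 1045 higher and 1007 lower, where the main fit called 479 and 80. DESeq2 called 1213 and 687 of all genes, and voom 1586 and 1008. Heph, a copper-dependent ferroxidase that takes part in iron export, went from 78.1 ± 20.2 to 249 ± 82.5 CPM (SD, n = 7), or by 1.64 on the log2 scale (SE 0.17, adjusted p 0.00935). Steap2, a reductase of iron and copper, rose by 1.08 (SE 0.20) at an adjusted p of 0.0251, and Atp7a, the copper pump of the secretory route that also supplies secreted enzymes, rose by 0.70 (SE 0.13) at an adjusted p of 0.0296. No other gene of the copper list passed, among them Slc31a1, Atox1 and Slc25a3 (log2 fold changes 0.0064, 0.06 and 0.16, adjusted p 0.985, 0.867 and 0.478). Of 6 genes tested on the list for manganese supply, 1 rose: Slc40a1, known chiefly as the iron exporter ferroportin, from 5.56 ± 4.38 to 54.3 ± 23.4 CPM, or by 3.41 on the log2 scale (SE 0.42, adjusted p 0.00935). Whether more metal reached the enzymes was not tested.

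Of 15 genes tested on a list of superoxide sources and related reductases, 1 rose (2.94% of all genes tested did). It was the reductase Cyb5r3 (cytochrome b5 reductase), at 174 ± 21.9 CPM in control and 338 ± 94.7 CPM in Nrf2 eyes (log2 fold change 0.92, SE 0.14, adjusted p 0.0137). Whether Cyb5r3 made superoxide here was not tested. Without mouse 7 none of the 15 passed, in a fit that called 111 of all genes. Without mouse 4 there were 5, 1 higher and 4 lower, beside 1045 higher and 1007 lower over all genes. Of 7 oxidases and related genes of the peroxisome, 1 passed, Acox2, a peroxisomal oxidase of branched chains and bile acid precursors that releases hydrogen peroxide, which rose from 7.63 ± 11.7 to 158 ± 68.6 CPM (log2 fold change 5.07, SE 0.63, adjusted p 0.00935). Of 20 genes of peroxisome import and biogenesis, the machinery that brings catalase into peroxisomes, 0 passed in edgeR, with 2 at an unadjusted p under 0.05, 0 in DESeq2 and 2 in voom, and the median log2 fold change was 0.0013. Over all genes, 559 passed in edgeR, 1900 in DESeq2 and 2594 in voom.

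Other enzymes that remove peroxide were also measured. Of 11 peroxiredoxins and glutathione peroxidases tested, 3 rose and none fell (2.94% of all genes tested rose), with a median log2 fold change of 0.29. The count was 2 without mouse 1, 3, 5, 6 or 7, and 5 in both DESeq2 and voom, all higher. Over all genes, DESeq2 called 1213 higher and voom 1586. Prdx6 rose from 865 ± 318 to 4499 ± 1653 CPM (log2 fold change 2.33, SE 0.30, adjusted p 0.00991) and Prdx1, a cytosolic peroxiredoxin, from 656 ± 177 to 2793 ± 1052 CPM (2.01, SE 0.27, adjusted p 0.0101). Gpx4, which reduces lipid peroxides, rose from 1081 ± 241 to 3627 ± 1459 CPM (1.67, SE 0.32, adjusted p 0.0286). Of 13 regulators of Sod2 and Cat, 1 rose, Keap1, the adaptor that targets Nrf2 for degradation, by 0.67 (SE 0.14, adjusted p 0.0348), beside the same 2.94% of all genes. None of the 13 passed without mouse 1, 2, 3, 5, 6 or 7, with no filter on low counts, or with library sizes from filtered genes. Of 9 matrix partners of Sod3, 0 passed in edgeR, with 2 at an unadjusted p under 0.05 and 2 in both DESeq2 and voom, and their median log2 fold change was -0.24. In either direction, DESeq2 called 1900 of all genes and voom 2594.

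**Figure D4:**
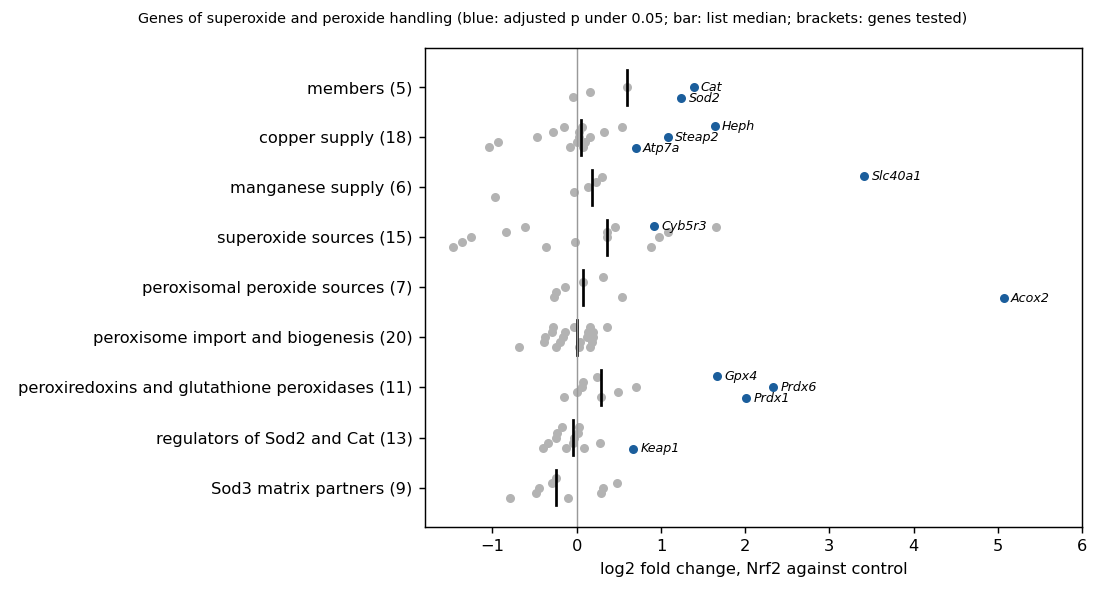
Log2 fold change, Nrf2 against control eyes (x axis), of the 5 genes and of 8 lists of related genes (y axis, number tested in brackets), with 1 point per gene, blue where adjusted p was under 0.05 and a bar at the list median. The genes that passed lie above 0, up to 5.07 for Acox2.

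The estimates for the 5 genes were compared between fits. Over 15 alternatives the log2 fold change of Cat ranged from 1.27 to 1.62 and passed in 13, and that of Sod2 from 1.12 to 1.40 and passed in 14. Sod1 ranged from 0.49 to 0.79 and passed in 3, and Ccs from 0.11 to 0.22 and passed in none. Sod3 ranged from -0.38 to 0.11, on both sides of 0, and passed in none.

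**Figure D5:**
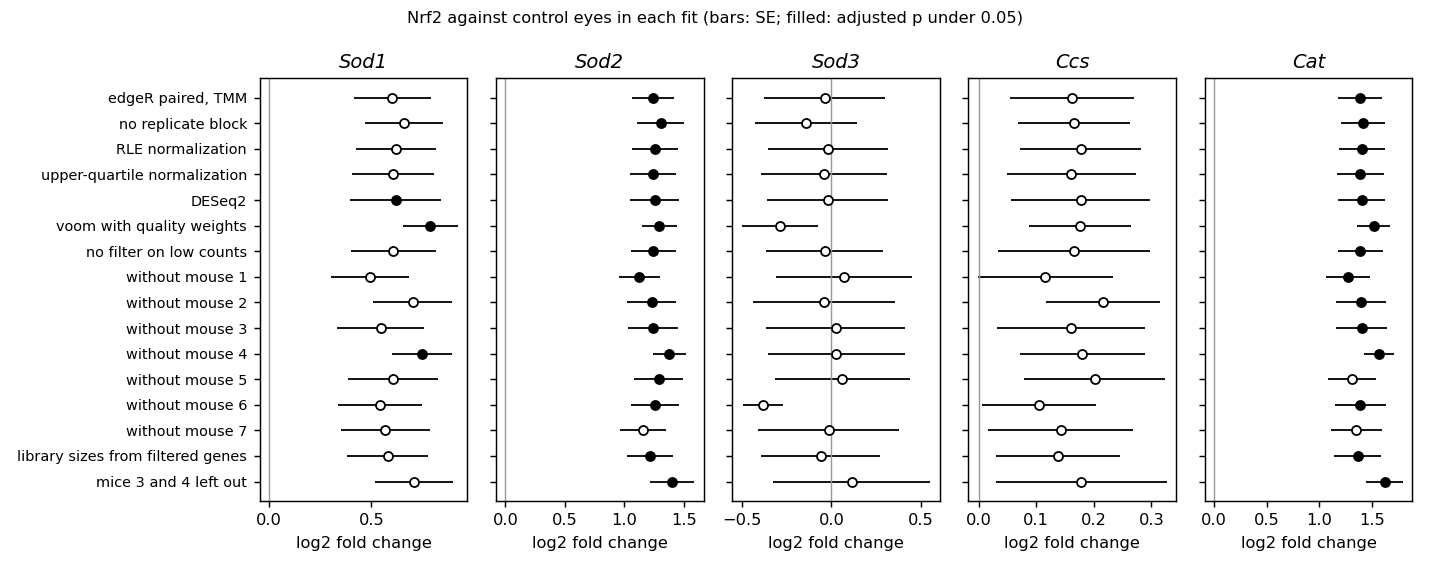
Log2 fold change with its SE (x axis) for each of the 5 genes under the fit with mouse as a block and each of 15 alternatives (y axis), with filled points where adjusted p was under 0.05. Cat lay between 1.27 and 1.62 and Sod2 between 1.12 and 1.40, while Sod3 lay on both sides of 0.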

How the data were processed

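RNA from rd1 RPE was measured in 14 libraries, 7 per group, grouped by the labelled treatment and paired by the labelled individual. The authors used a kit for low input, mm10 with Ensembl release 91, and Salmon (0.9.1 in the submitters' processing notes) before their own DESeq2 tests. What was deposited is a table of estimated counts, in whole numbers and not normalized. That they come from Salmon was inferred. The methods name 6 pairs, and 7 are used here. The labels mention 2 sequencing runs without saying which library was in which.

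The 5 genes and all lists were chosen with earlier results of these data known. Genes with enough counts (filterByExpr, minimum 10) were fitted with edgeR 4.0.16 (R 4.3.3, quasi-likelihood F-test, terms mouse and treatment, TMM, library sizes as deposited with the vector transcript), and p was adjusted by Benjamini-Hochberg over 16289 genes, with a threshold of 0.05. All single-gene adjusted p-values without another tool named are from this test. The deviations of the 2 eyes of a mouse from their group means correlated at 0.03, 0.07, 0.09, -0.44, 0.40, -0.26 and 0.19 in mice 1 to 7, over 11999 genes. The pairing thus rests on the labels. Paired values were log2 CPM with a prior count of 2, and exact tests ran over all 128 sign patterns or all pairings and were two-sided. Their intervals come from means over all subsets of mice.

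Alternatives were no block, RLE or upper-quartile scaling, DESeq2 1.42.0, voom with quality weights (limma 3.58.1), no filter, a prior count of 0.5, each mouse left out, and mice 3 and 4 left out. Library sizes from filtered genes and plain CPM were added after seeing the data. Named genes were the 5, list genes past the threshold, and for each of the 5 the 3 nearest profiles (mean of at least 5 CPM). Positions and lengths are from GENCODE on GRCm38, and copies were sought with BLAST 2.17.0 (at least 85% identity over 300 bases).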

Additional observations from a re-analysis of the deposited data

Results flagged for a closer look

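Among 25 groups of 7 values examined for the 5 genes, 5 had an extreme value that stood apart from the other 6 by Dixon's test, which chance alone gives in about 1 in 20 groups. The level of Sod3 in control 6, 12.3 CPM, was far below the other control eyes. The paired log2 difference of Sod3 in mouse 6, 2.35, stood above the other mice and is computed from that library, as is the change of the ratio of Sod3 to Ccs in mouse 6, 1.93. The paired log2 difference of Cat in mouse 4, 0.28, lay below the other mice, and that mouse holds the library labelled Nrf2 4 with the least vector transcript of the Nrf2 group. The change of the ratio of Sod2 to Cat in mouse 5 was -0.87, where control 5 had the lowest Cat level of all libraries, 186 CPM. The causes were not tested.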

How the results depend on the processing

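The count of differing genes varied widely. Without the block for mouse, 1100 genes differed in place of 559, and 1900 did in DESeq2, 2594 in voom and 347 with no filter. Leaving out 1 mouse gave 111 (mouse 7) to 2052 genes (mouse 4), and 0 (mouse 7) to 3 of the 5 genes passed. The block for mouse changed no call among the 5 genes: without it Sod1 had an adjusted p of 0.0514. Sod1 passed in DESeq2 (0.62) and voom (0.79). With 1 mouse left out, log2 fold changes ranged from 1.27 to 1.57 for Cat, 1.12 to 1.38 for Sod2, 0.49 to 0.75 for Sod1, 0.11 to 0.22 for Ccs and -0.38 to 0.0695 for Sod3, and with mice 3 and 4 left out that of Sod3 was 0.11. With 1 mouse left out the changes of ratios ranged from -0.71 to -0.53 (Sod1/Sod2), -0.86 to -0.69 (Sod1/Cat), 1.01 to 1.20 (Sod2/Ccs), -1.39 to -1.10 (Ccs/Cat), 0.36 to 0.92 (Sod1/Sod3), 0.99 to 1.63 (Sod2/Sod3), -1.76 to -1.14 (Sod3/Cat) and -0.48 to 0.016 (Sod3/Ccs). The first 4 kept their sign, and of these fits only the one without mouse 6 let them pass, where 6 mice allow a p no smaller than 0.0312. A prior count of 0.5 changed no call of a ratio. With 1 mouse left out, 1 to 5 genes of copper supply, 1 or 2 of manganese supply, 0 to 5 of superoxide sources, 1 or 2 of peroxide sources, 0 or 1 of peroxisome import, 2 or 3 of the peroxiredoxin list, 0 or 1 of the regulators and 0 to 2 of the Sod3 partners passed, and with mice 3 and 4 left out it was 2, 1, 2, 1, 0, 3, 1 and 0. Over all genes, 761 passed with mice 3 and 4 left out. On plain CPM the relation of Sod3 to the vector transcript was -0.076. The causes of these shifts were not tested. The 7 mice, the vector transcript in control 3 and the unknown sequencing runs limit all comparisons.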
